A study of Mus musculus with 30 samples.

Results

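The insulin-like growth factor (IGF) system was examined across the hours of a culture series of mouse leg muscle. Its 10 genes were the ligands Igf1 and Igf2, the receptors Igf1r and Igf2r, and the binding proteins Igfbp2, Igfbp3, Igfbp4, Igfbp5, Igfbp6 and Igfbp7. Members were all probe sets annotated to exactly 1 of these genes on either chip of a 2-chip Affymetrix set, giving 28 probe sets, 23 on the A chip and 5 on the B chip, of 45137 on both chips without controls. A further probe set shared between Igf2r and another gene was left out. A filter kept the brightest 60% of each chip for testing, and 25 of the 28 passed that filter, with at least 1 for each of the 10 genes. The 3 that did not pass measured Igfbp4 (1421991_a_at) and Igfbp7 (1423585_at and 1437804_at), at 10.1 to 67.3, 3.5 to 50 and 22.7 to 52.4 intensity units. Cultures were labelled 0, 4, 12, 24 or 48 h, with 3 replicates at each hour and 1 array of each chip for each replicate. The labels give no strain, age or medium and do not say what 0 h stands for. A comparison of hours therefore says only how levels differed between the labelled hours. Nor do the labels tell whether a replicate is a culture of its own, and the p-values therefore describe variation among these arrays, which may be technical.

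IGF1 and IGF2 are secreted peptides that signal through the tyrosine kinase receptor IGF1R and from there through insulin receptor substrates to PI3K and AKT. IGF2R, also the receptor for mannose 6-phosphate, binds IGF2 and carries it to lysosomes without signalling as IGF1R does, and the binding proteins hold the ligands outside the cell and lengthen or limit their action. In skeletal muscle, locally made IGFs are known to promote both the division of myoblasts and their differentiation, and IGFBP5 is a binding protein that myoblasts themselves secrete.

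The start regions of 4 members on which the results turn are shown so that their motifs can be compared: Igf1, Igfbp4, Igfbp2 and Igfbp5. Each is the RefSeq window of GRCm38.p6 from 250 bases before to 50 bases after an annotated start, written 5′ to 3′ on the strand of the gene. Capitals mark TATAAA and CANNTG, the general letters of an E-box, in which N is any base. Myogenic regulatory factors bind some E-boxes, and binding to the marked ones was not tested. The windows lie at chr10:87860861-87861160 (plus strand, Igf1), chr11:99040994-99041293 (plus strand, Igfbp4), chr1:72824230-72824529 (plus strand, the first of 2 Igfbp2 windows) and chr1:72874816-72875115 (minus strand, Igfbp5).
Igf1: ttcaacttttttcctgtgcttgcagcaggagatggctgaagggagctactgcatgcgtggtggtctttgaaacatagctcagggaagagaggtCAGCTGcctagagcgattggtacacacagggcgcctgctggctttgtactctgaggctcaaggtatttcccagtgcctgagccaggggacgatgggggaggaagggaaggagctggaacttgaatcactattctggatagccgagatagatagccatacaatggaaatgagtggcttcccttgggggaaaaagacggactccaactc
Igfbp4: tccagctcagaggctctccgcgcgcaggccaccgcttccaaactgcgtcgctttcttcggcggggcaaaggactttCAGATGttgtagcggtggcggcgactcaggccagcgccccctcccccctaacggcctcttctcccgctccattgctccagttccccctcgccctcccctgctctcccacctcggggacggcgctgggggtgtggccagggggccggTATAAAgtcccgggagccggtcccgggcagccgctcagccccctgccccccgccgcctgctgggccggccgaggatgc
Igfbp2: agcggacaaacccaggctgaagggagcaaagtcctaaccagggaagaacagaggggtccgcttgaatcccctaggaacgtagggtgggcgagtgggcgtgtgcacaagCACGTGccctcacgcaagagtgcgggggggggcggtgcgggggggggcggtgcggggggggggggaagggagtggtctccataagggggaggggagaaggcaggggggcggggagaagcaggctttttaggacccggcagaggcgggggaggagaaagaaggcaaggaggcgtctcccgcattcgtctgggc
Igfbp5: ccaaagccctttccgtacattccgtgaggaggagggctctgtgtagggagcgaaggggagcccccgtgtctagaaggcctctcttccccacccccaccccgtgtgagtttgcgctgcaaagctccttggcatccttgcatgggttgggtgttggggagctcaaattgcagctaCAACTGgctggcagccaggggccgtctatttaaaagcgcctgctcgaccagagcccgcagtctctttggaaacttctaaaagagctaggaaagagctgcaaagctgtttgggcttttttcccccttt
Searched on both strands, CANNTG was in 10 of the 14 windows that RefSeq gives for the 10 genes, and in 72.3% of all 32851 windows of the same length. Igf1r, Igfbp7 and 2 of the 4 Igf2 windows held none. CAGCTG, a form of CANNTG that reads the same on both strands, was in the Igf1 window only, at 157 bases before the start, against 16.3% of all windows. TATAAA was in the windows of Igfbp4, 28 bases before the start, and Igfbp6, against 13.6% of all windows. Neither the MEF2 consensus nor TGTTTAC, the letters of a FOXO site, was in any of the 14 windows, against 3.69% and 3.65% of all windows. Igfbp2 and Igfbp5 are neighbours on chromosome 1 with 0 annotated genes between them, and they lie on opposite strands.

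Intensities were linear values that had been scaled as a whole, with trimmed means of 500.1 to 500.2 on all arrays and medians of 154.7 to 183.4 on A and 220 to 256.2 on B, and 3 arrays per hour on each chip limit the precision. All 9 skeletal muscle markers passed the filter, among them Myod1, Myog, Des and Ckm, with summed intensities of 41696 to 70128 over the arrays. Of 6 fibroblast markers 5 lay below the filter, as did 3 of 5 markers each of endothelium and of leukocytes. The 1 fibroblast marker that passed, Col3a1, was bright, at 1648 to 4003 over the arrays. The 2 tested markers each of endothelium and of leukocytes summed to 206.5 to 433.8 and 216.9 to 474.7. The share of such cells in the cultures was not tested. Replicate 3 differed from the other replicates at all hours. All 6 measured markers of dividing cells were higher in replicate 3, and their summed intensity was 15062 to 18536 there, against 5783 to 11866 in replicates 1 and 2. The limma fits were therefore run with hour alone, with a term for replicate 3 beside hour, and in replicates 1 and 2 alone. Not every result is printed in all 3 fits. The split of replicate 3 was already known from earlier results of these data, so the last 2 fits were not set blind to it. In such bulk RNA, fewer cells of a type and less RNA per cell cannot be told apart.

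With hour alone, 0 of the 25 member probe sets were called (adjusted p under 0.05 in limma) in any comparison with 0 h. The share called among all probe sets was 0% on both chips at 4 h, 0% on A and 0.0074% on B at 12 h, 2.67% on A and 0.851% on B at 24 h, and 2.15% on A and 1.13% on B at 48 h. At an unadjusted p under 0.05 there were 3 at 4 h, 3 at 12 h, 5 at 24 h and 7 at 48 h. The share of all probe sets under that unadjusted threshold was not counted in any fit. Over all hours together, 2 member probe sets were called, Igf1 on B and Igfbp4 on A, against a background of 0.896% on B and 1.97% on A. With the term for replicate 3 it was 11 (8 on A and 3 on B), against 14% and 6.65%. With the term for replicate 3, 7 probe sets of 6 genes were called at 24 h, 5 of 20 on A and 2 of 5 on B, where 13% of all A and 4.12% of all B probe sets were. Higher at 24 h in that fit were Igf1 (2 probe sets), Igf2, Igfbp3 and Igfbp4, and lower were Igfbp5 and Igfbp7. At 48 h it called 5, with Igf1r, Igfbp3 and Igfbp4 higher and Igfbp2 and Igfbp7 lower, 4 of 20 on A and 1 of 5 on B, against 9.79% and 5.25% of all probe sets. At 12 h it called 1 member, Igf1 on B (background 0.326% on B and 1.05% on A), and at 4 h 0 (background 0% on both chips), with 6 at an unadjusted p under 0.05. In replicates 1 and 2 alone all 7 of the calls at 24 h and 4 of the 5 at 48 h were made as well. The background there was 15% on A and 5.15% on B at 24 h, and 12.4% and 6.32% at 48 h. The arrays of the 2 hours did not overlap for 7 members at 24 h against 0 h (6 on A and 1 on B, against 21.3% and 16.2% of all) and for 5 at 48 h (4 on A and 1 on B, against 18.2% and 19.9%). All 6 markers of dividing cells were lower at 24 h in the fit with the term (median log2 difference -0.80), and 0 of the 6 with hour alone. Of 3 tested markers of cartilage and bone, Col2a1 was lower with hour alone, at 126 ± 63.0 intensity units at 24 h and 162 ± 54.5 at 48 h, against 1046 ± 452 at 0 h (SD, n = 3 each, adjusted p = 0.0038 and 0.0083 in limma). The summed cartilage and bone markers, a sum that was mostly Col2a1 at 0 h, were 268.9 to 437.6 at 24 h, against 826.4 to 1911.6 at 0 h. Sox9 averaged 82.2 at 0 h, 85.1 at 24 h and 118 at 48 h. Sp7 averaged 246, 123 and 139 at those hours, and neither Sox9 nor Sp7 was called with hour alone. Of 4 tested markers of smooth muscle and pericytes, Abcc9 was higher at 24 h with hour alone (log2 difference 1.46, adjusted p = 0.0112 in limma), and Rgs5 was lower with the term (-1.90, adjusted p = 3.0e-05). Of the 9 muscle markers 3 were higher and 1 lower at 24 h with hour alone. The part of these cell types in the members' differences was not tested. The median log2 difference of the members at 24 h was 0.23 on A and 0.14 on B, against -0.05 and -0.02 over all tested probe sets, and at 48 h it was 0.34 and 0.44, against 0.01 and -0.0017.

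**Figure D1:**
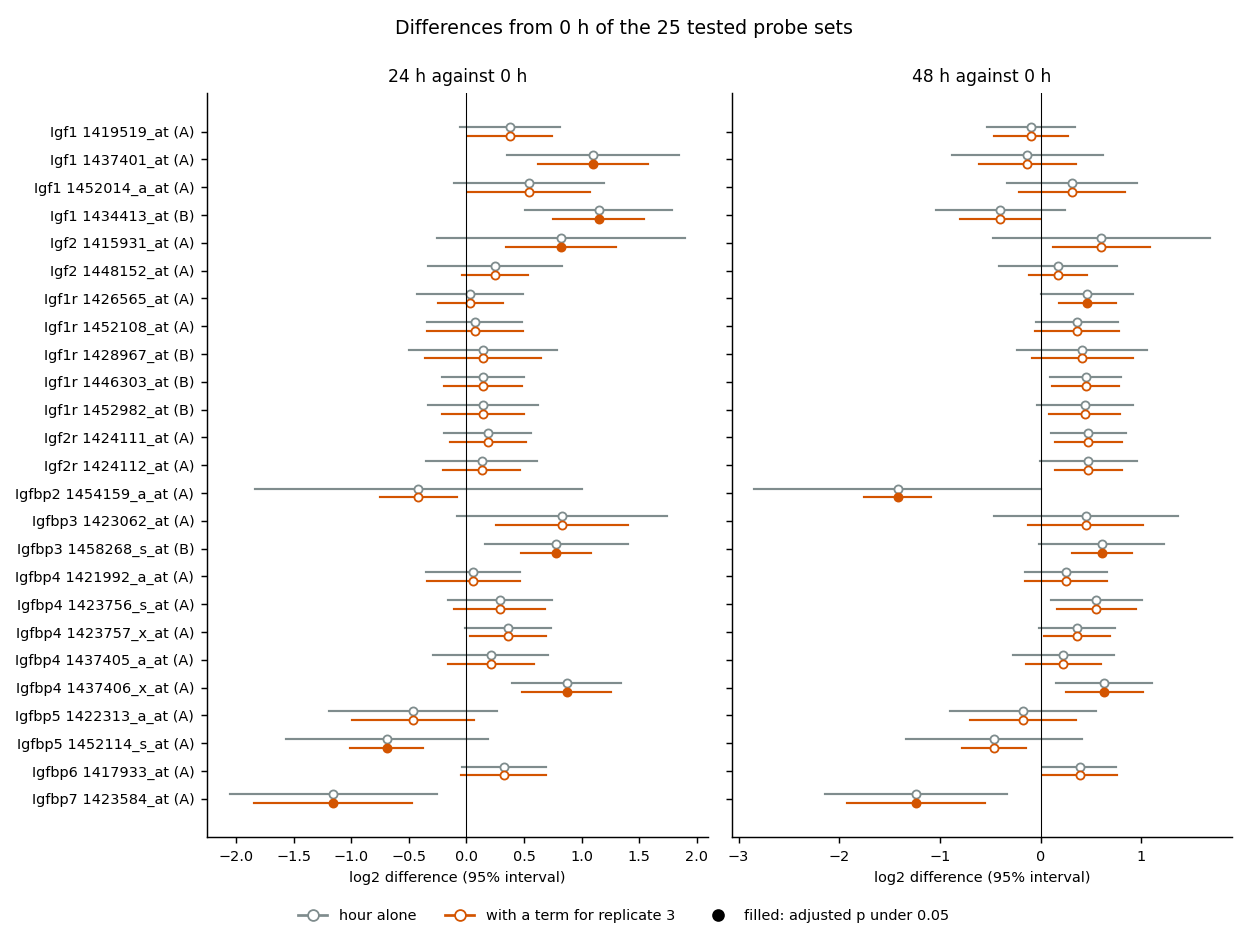
Log2 differences from 0 h, on the log2(intensity + pseudocount) scale, of the 25 tested member probe sets at 24 h (left) and 48 h (right). Points are estimates and lines 95% intervals of limma fits with hour alone (grey) and with a term for replicate 3 (orange), and filled points have an adjusted p under 0.05. The estimates of both fits are the same and the intervals of the second are mostly narrower, and Igfbp2 at 48 h and Igfbp7 at both hours lie farthest to the left.

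Igf1, the ligand of IGF1R, had its highest means at 12 and 24 h and its lowest at 48 h in its brightest probe set, and none of its 4 probe sets was called at 48 h against 0 h in the 3 fits. The Igf1 probe set on B (1434413_at) read 814.1, 860.4 and 463.6 intensity units at 0 h, 1541.6, 1117.9 and 706.4 at 4 h, 1932.3, 1529.2 and 1105.3 at 12 h, 2111, 1497.4 and 1274.4 at 24 h, and 615.9, 476.3 and 449.5 at 48 h, in replicates 1, 2 and 3. All 3 arrays at 12 h and at 24 h lay above all 3 at 0 h, and all 3 at 48 h lay below all 3 at 24 h, while 48 h and 0 h overlapped. The means in order were 1628 ± 433 at 24 h, 1522 ± 414 at 12 h, 1122 ± 418 at 4 h, 713 ± 217 at 0 h and 514 ± 89.3 at 48 h (SD, n = 3 each), and neighbours in that order from 24 h to 4 h differed by less than their SD. This was 1 of the 2 members that passed the test over all hours with hour alone (adjusted p = 0.0455 in limma, and 0.00045 with the term for replicate 3). The call with hour alone was lost in 11 of the 15 fits that left out 1 replicate of 1 hour. It held without replicate 3 of 0, 4, 12 or 24 h. Over all 27 alternatives its adjusted p in limma was 0.00029 to 0.142.

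At 24 h against 0 h the log2 difference of Igf1 on B was 1.15 ± 0.30 (SE), with an adjusted p of 0.091 in limma with hour alone and 0.0023 with the term. Within replicates 1, 2 and 3 the array at 24 h exceeded that at 0 h by 1.32, 0.76 and 1.36 on the log2 scale. At 12 h against 0 h the difference was 1.05 ± 0.30 (SE), with adjusted p-values in limma of 0.511 with hour alone, 0.030 with the term and 0.0896 in replicates 1 and 2 alone. The call at 12 h with the term was lost without any 1 of the 3 arrays at 0 h or of the 3 at 12 h, with an adjusted p of up to 0.168 in limma. At 48 h against 24 h the difference, -1.55 ± 0.30 (SE), had an adjusted p of 0.0564 in limma with hour alone and 0.00055 with the term, where 0.126% and 2.58% of all B probe sets were called. On A the shares were 0.0147% and 2.57%.

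The 3 Igf1 probe sets on A were dimmer. Igf1 1437401_at read 212.3, 140.1 and 95.9 at 0 h, 393.3, 345.4 and 143.6 at 4 h, 394.3, 381.2 and 171.6 at 12 h, 333.4, 389.7 and 300.5 at 24 h, and 156, 110.1 and 121.6 at 48 h. It was again higher on all 3 arrays at 24 h than on any at 0 h, and lower on all 3 at 48 h than on any at 24 h. Its log2 difference at 24 h was 1.10 ± 0.35 (SE), with adjusted p-values in limma of 0.118 with hour alone and 0.0043 with the term. At 48 h against 24 h it was -1.23 ± 0.35 (SE), with adjusted p-values in limma of 0.402 and 0.0115 in the same fits, and the call with the term was lost without replicate 2 of 24 h (adjusted p = 0.0608). Igf1 1419519_at (117.7 to 251 over the arrays) and 1452014_a_at (96.7 to 354.1) had positive differences at 24 h too, 0.38 and 0.54 on the log2 scale, and neither was called there. At 48 h 1452014_a_at averaged 171, against 125 at 0 h, so its mean at 48 h was not the lowest. Across the 15 A arrays the log2 values of the 3 probe sets correlated with r of 0.52 to 0.80, as a description.

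Igf2, the ligand that IGF2R clears, was measured by 2 A probe sets that differed in how they moved. Igf2 1448152_at read 9939, 11285 and 7457 at 0 h, 12517, 15294 and 7997 at 4 h, 13502, 13176 and 9404 at 12 h, 11874, 12288 and 9538 at 24 h, and 15284, 11016 and 7093 at 48 h. Its hours overlapped and its log2 differences from 0 h were between 0.17 and 0.33, and it was called in no comparison of hours in the 3 fits. Igf2 1415931_at read 1080.7, 735.8 and 527.5 at 0 h, 1064.4, 541.6 and 471 at 4 h, 1402.2, 1332.1 and 530.7 at 12 h, 1965.2, 1971.3 and 624.5 at 24 h, and 1507.5, 1610.2 and 628.6 at 48 h. Replicates 1 and 2 separated from replicate 3 from 12 h on. At 24 h its log2 difference from 0 h was 0.82 ± 0.50 (SE), with adjusted p-values in limma of 0.458 with hour alone, 0.0242 with the term and 0.009 in replicates 1 and 2 alone. The changes at 24 h were 0.85 and 1.39 in replicates 1 and 2 and 0.23 in replicate 3 on the log2 scale. The call with the term was lost without replicate 2 of 0 h or without replicate 1 or 2 of 24 h, with an adjusted p of up to 0.15 in limma.

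**Figure D2:**
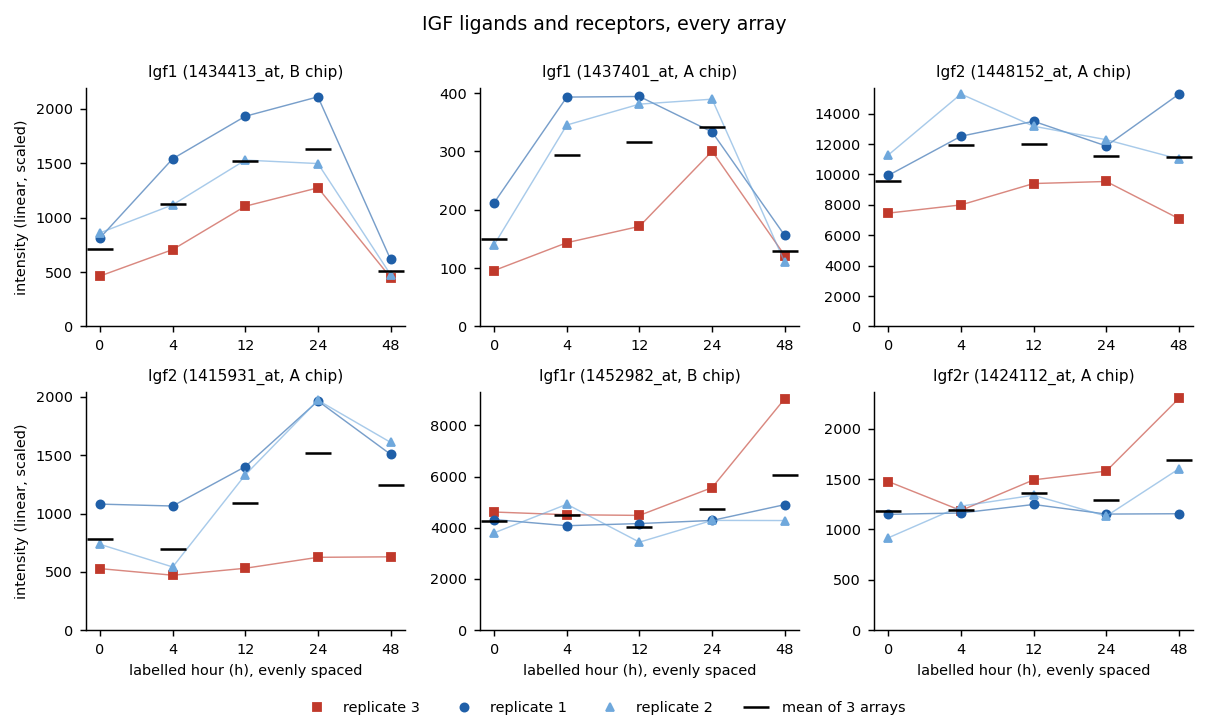
Linear scaled intensity of 2 Igf1, 2 Igf2, 1 Igf1r and 1 Igf2r probe sets on every array against the labelled hour, with evenly spaced hours. Symbols and colours mark the replicate numbers, thin lines join arrays of the same number, and black bars are means of 3 arrays. Both Igf1 probe sets have their highest means at 12 or 24 h and their lowest at 48 h, and replicate 3 lies below replicates 1 and 2 for both Igf2 probe sets at every hour.

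Both receptors were highest at 48 h on average in their brightest probe sets, with small differences. For Igf1r that probe set (1452982_at, B) read 4903, 4282 and 9044 at 48 h in replicates 1, 2 and 3. It read 4080, 4919 and 4510 at 4 h, so only replicate 3 stood apart at 48 h. Igf1r, the receptor that signals for both ligands, was measured by 2 A and 3 B probe sets, and all 5 had positive log2 differences at 48 h, between 0.36 and 0.46. Igf1r 1426565_at on A read 576, 561.5 and 738.3 at 48 h, against 360.3, 413.8 and 580.6 at 0 h. Its array in replicate 3 at 0 h exceeded replicates 1 and 2 at 48 h, so the hours overlapped. The log2 difference was 0.46 ± 0.21 (SE), with adjusted p-values in limma of 0.330 with hour alone, 0.0372 with the term and 0.0519 in replicates 1 and 2 alone. The call with the term was lost in 7 of the 15 fits without 1 array, those without replicate 1 or 2 of 0 h, replicate 1 or 2 of 24 h, or any replicate of 48 h, with an adjusted p of up to 0.123 in limma. Igf1r 1446303_at on B read 751.7, 850.5 and 913.4 at 48 h, against 559.1, 551.3 and 695.7 at 0 h, and these did not overlap. At 4 h the same probe set read 394.1, 473.3 and 473.9, all below the arrays at 0 h. Its adjusted p over all hours in limma was 0.113 with hour alone and 0.0312 with the term, and the call with the term was lost in 7 of 15 fits without 1 array (up to 0.109).

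The other Igf1r probe sets were called in no comparison of hours in the 3 fits. Igf1r 1452982_at on B ranged from 3438 to 5569 on 14 arrays and read 9044 in replicate 3 at 48 h. Igf1r 1428967_at on B ranged from 679.8 to 1808.9, with its highest value also in replicate 3 at 48 h, and 1452108_at on A from 87.2 to 179.4. Igf2r, the clearance receptor of IGF2, read 1156.7, 1602.5 and 2301.9 at 48 h, against 1150.4, 917.5 and 1476.5 at 0 h, with 1424112_at, and the hours overlapped. Igf2r 1424111_at read 1085.1, 932.1 and 1138.4 at 48 h, against 670.3, 655.1 and 946.2 at 0 h, and these overlapped too. Its log2 difference of 0.47 ± 0.18 (SE) had an adjusted p in limma of 0.202 with hour alone and 0.0383 in replicates 1 and 2 alone, where the difference was 0.58. With the term for replicate 3 this probe set was not called at 48 h.

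Igfbp2, a binding protein with a high affinity for IGF2, was lowest at 48 h in every replicate. It read 9117, 10025 and 3942 at 0 h, 12992, 11949 and 4244 at 4 h, 10143, 9871 and 4162 at 12 h, 8120, 8824 and 2099 at 24 h, and 4274, 4368 and 977.8 at 48 h in replicates 1, 2 and 3 (1454159_a_at, A). Replicate 3 was the lowest at every hour, so hours overlapped although each replicate number changed the same way. The log2 changes at 48 h were -1.09, -1.19 and -1.98 in replicates 1, 2 and 3. The log2 difference was -1.42 ± 0.66 (SE) with hour alone, with an adjusted p of 0.337 in limma, and -1.42 ± 0.16 (SE) with the term, with an adjusted p of 4.6e-05. The call with the term held in all 15 fits without 1 array, with an adjusted p of at most 0.000425 in limma, and in replicates 1 and 2 alone (adjusted p = 2.6e-05). At 48 h against 24 h the difference was -1.0 on the log2 scale, with adjusted p-values in limma of 0.695 with hour alone and 0.0052 with the term, and without replicate 2 of 24 h the value with the term was 0.0557. Igfbp2 and Igf1 1437401_at were the 2 of 20 member probe sets on A called there with the term.

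Igfbp3, the main carrier of IGFs in serum, was higher on average at 24 and 48 h in both its probe sets, and neither was called against 0 h with hour alone. Igfbp3 1458268_s_at on B read 2457, 2773 and 1449 at 0 h, 2167, 1797 and 1371 at 4 h, 2703, 2328 and 2065 at 12 h, 4131, 4764 and 2616 at 24 h, and 4250, 3816 and 2211 at 48 h. Replicate 3 was the lowest at every hour, and the value of each replicate number was higher at 24 h than at 0 h, by 0.74, 0.77 and 0.83 on the log2 scale in replicates 1, 2 and 3. The log2 difference at 24 h was 0.78 ± 0.29 (SE), with an adjusted p in limma of 0.307 with hour alone and 0.0051 with the term, and the call with the term held in all 15 fits without 1 array. At 48 h it was 0.61 ± 0.29 (SE) with hour alone, where it was not called. With the term it was called at 48 h (adjusted p = 0.0207 in limma). That call was lost without replicate 1 or 3 of 0 h or replicate 1 or 2 of 48 h (up to 0.0969). Igfbp3 1423062_at on A read 690, 464 and 433.1 at 24 h, against 374.9, 385.4 and 145.3 at 0 h. These 2 hours did not overlap, and its log2 difference of 0.83 had an adjusted p in limma of 0.357 with hour alone and 0.0521 with the term. At 48 h this probe set read 403.4, 722.1 and 198.8, which overlapped with 0 h. Its log2 difference of 0.45 there was called in none of the 3 fits.

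Igfbp4, a binding protein cleaved by the protease PAPPA, was measured by 5 tested A probe sets, of which 1 was called with hour alone. Igfbp4 1437406_x_at read 149.9, 169.6 and 210.7 at 0 h, 122, 98.2 and 229.2 at 4 h, 272.1, 238.5 and 235.7 at 12 h, 335.5, 321.2 and 376.7 at 24 h, and 290.8, 251.6 and 324.3 at 48 h. All arrays at 12, 24 and 48 h lay above all arrays at 0 h. With hour alone it passed the test over all hours with an adjusted p of 0.0489 in limma, a call that was lost in 14 of the 15 fits without 1 array and held without replicate 3 of 4 h. Its adjusted p over the 26 alternatives was 0.0012 to 0.143 in limma. At 24 h the log2 difference was 0.87 ± 0.22 (SE), with adjusted p-values in limma of 0.0543 with hour alone and 0.0047 with the term, and the call with the term held in all 15 fits without 1 array. At 48 h it was 0.63 ± 0.22 (SE) with hour alone, where it was not called. With the term it was called at 48 h (adjusted p = 0.0364 in limma). That call was lost in 8 of those 15 fits, among them each that left out an array of 0 h or 48 h (up to 0.127). The suffixes _x and _s in such names mark probe sets whose probes can also match other transcripts.

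The other 4 tested Igfbp4 probe sets had positive log2 differences at 24 h, 0.06 to 0.36, and at 48 h, 0.22 to 0.55, none called with hour alone or, against 0 h, with the term. Of these, 1423757_x_at read 324.5, 414.7 and 472 at 24 h, against 286.5, 314.7 and 312.6 at 0 h, without overlap. Igfbp4 1423756_s_at read 229.2, 288.8 and 322.7 at 48 h, against 133.4, 168.9 and 256.5 at 0 h, and was called at 48 h in replicates 1 and 2 alone (log2 difference 0.68, adjusted p = 0.0466 in limma). Over all hours it was called with the term (adjusted p = 0.0309 in limma) and in replicates 1 and 2 alone (0.0254), against 0.197 with hour alone. The call with the term was lost in 7 of the 15 fits without 1 array, those without replicate 2 of 0 h, replicate 1 or 2 of 4 h or of 24 h, or replicate 2 or 3 of 48 h (up to 0.0884). Across the 15 arrays the 5 probe sets correlated in pairs with r of 0.54 to 0.86, as a description.

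Igfbp5, which myoblasts secrete and which binds matrix and IGFs, was lower at 24 h. Igfbp5 1452114_s_at read 1787.5, 1649.1 and 731.3 at 0 h, 2434, 1999 and 992.7 at 4 h, 2183, 1748 and 840.2 at 12 h, 952.9, 907.4 and 571.3 at 24 h, and 1117, 1037 and 695.9 at 48 h. Replicate 3 was the lowest at every hour, and every replicate number had its lowest value at 24 h. The log2 difference at 24 h was -0.69 ± 0.41 (SE), with an adjusted p in limma of 0.443 with hour alone and 0.0058 with the term, which held in all 15 fits without 1 array. In replicates 1 and 2 alone it was -0.86 ± 0.15 (SE), with an adjusted p of 0.0017 in limma. At 24 h against 12 h it was -0.88, with an adjusted p of 0.829 in limma with hour alone and 0.0147 with the term, where 0% of all A probe sets were called with hour alone and 0.302% with the term (0% and 0.0444% on B). That call was lost without replicate 1 or 2 of 12 h or of 24 h (up to 0.130). Igfbp5 1422313_a_at read 195.6, 227.8 and 190.7 at 24 h, against 501.6, 286.4 and 169.5 at 0 h, and it was called against 0 h in none of the 3 fits.

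Igfbp6, a binding protein that prefers IGF2, read 185.1, 191.8 and 161.3 at 24 h and 197.9, 191.1 and 177.3 at 48 h, against 126.7, 132.9 and 153.8 at 0 h (1417933_at, A). All arrays at both hours lay above those at 0 h by a small margin. The log2 differences were 0.32 ± 0.17 and 0.39 ± 0.17 (SE), and neither was called in the 3 fits (adjusted p of 0.376 and 0.299 in limma with hour alone).

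Igfbp7, a relative that binds IGFs only weakly, was lower at 24 and 48 h in replicates 1 and 2, and its change differed in replicate 3. It read 767.5, 860 and 330.1 at 0 h, 928.7, 914.4 and 297.5 at 4 h, 608.6, 560.7 and 276.3 at 12 h, 211.9, 226.8 and 344.9 at 24 h, and 244.1, 218.7 and 257.6 at 48 h (1423584_at, A). In replicates 1 and 2 alone the log2 difference was -1.76 ± 0.15 (SE) at 24 h and -1.69 ± 0.15 (SE) at 48 h, with adjusted p-values of 8.4e-06 and 9.5e-06 in limma. Over all 3 replicates the differences were -1.15 ± 0.42 and -1.24 ± 0.42 (SE), with adjusted p-values in limma of 0.173 and 0.161 with hour alone and 0.0264 and 0.0230 with the term. At 24 h the call with the term was lost without replicate 1 or 2 of 0 h or of 24 h (up to 0.139), and at 48 h without replicate 1 or 2 of 0 h or of 48 h (up to 0.119). At 24 h the change was 0.06 in replicate 3, against -1.73 and -1.80 in replicates 1 and 2. At 48 h it was -0.33 in replicate 3, against -1.54 and -1.84 in replicates 1 and 2. A limma fit with a mean for each hour in each of the 2 sets of replicates, chosen after the data were seen, tested that difference itself. It was 1.82 ± 0.26 (SE) at 24 h (adjusted p = 0.0101) and 1.37 ± 0.26 (SE) at 48 h (adjusted p = 0.0192), where 0.714% and 1.78% of all A probe sets (0.133% and 0.555% on B) were called. Replicate 3 has 1 array per hour, which that fit assumes to vary like the others. Of the 100 such differences tested over the 25 probe sets and 4 hours, these 2 were called.

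**Figure D3:**
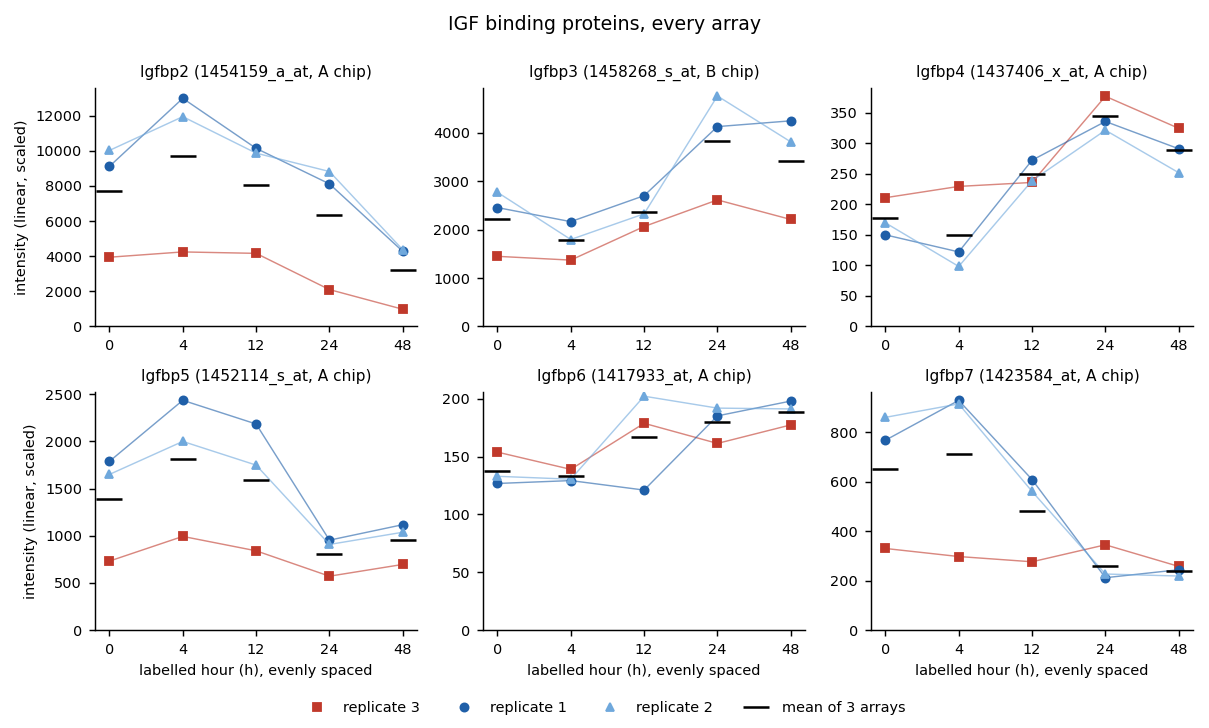
Linear scaled intensity of 1 probe set of each binding protein on every array against the labelled hour, with evenly spaced hours. Symbols and colours mark the replicate numbers, thin lines join arrays of the same number, and black bars are means of 3 arrays. In the probe sets shown, Igfbp2 is lowest at 48 h and Igfbp5 at 24 h in all 3 replicate numbers. Igfbp3 and the Igfbp4 probe set shown, 1437406_x_at, are higher at 24 h than at 0 h in all 3. Of the other tested Igfbp4 probe sets, 1423757_x_at was also higher in all 3. Log2 changes at 24 h were negative for 1437405_a_at (-0.01) and 1423756_s_at (-0.14) in replicate 3. For 1421992_a_at they were -0.09 and -0.19 in replicates 2 and 3. Igfbp7 is lower at 24 and 48 h in replicates 1 and 2 while replicate 3 stays between 257.6 and 344.9.

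**Figure D4:**
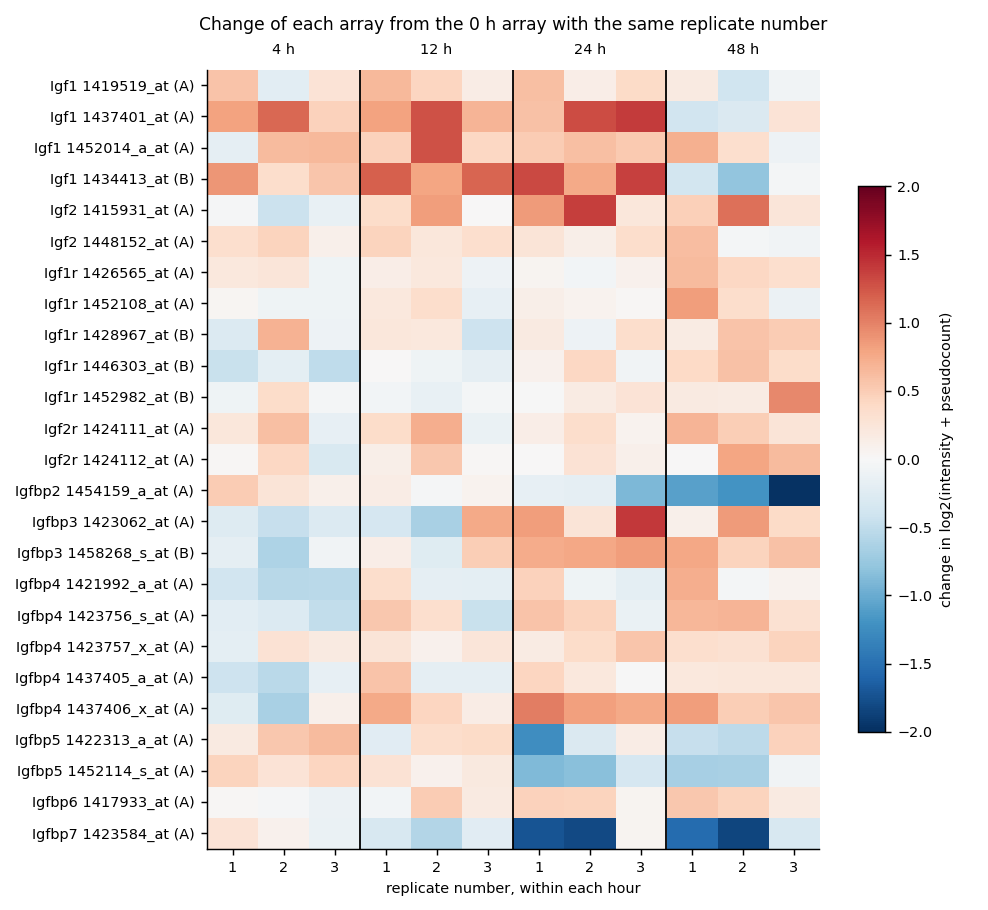
Change in log2(intensity + pseudocount) of each array from the array at 0 h with the same replicate number, for the 25 tested probe sets (down the page, in the order of ligands, receptors and binding proteins) at 4, 12, 24 and 48 h. Red is higher and blue lower than at 0 h. Igf1 on B is red at 4 to 24 h in all 3 replicate numbers, Igfbp2 is blue at 48 h in all 3, and Igfbp7 is dark blue at 24 and 48 h in replicates 1 and 2 only.

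Many member probe sets differed between replicate 3 and replicates 1 and 2. This split had been seen in earlier results of these data, so its p-values are not those of a split set beforehand. With hour kept in the limma model, 14 of the 25 probe sets differed, 11 of 20 on A, where 33.9% of all probe sets did, and 3 of 5 on B, where 14.8% did. Lower in replicate 3 were both ligands and 4 binding proteins, in 10 probe sets (8 on A and 2 on B, against 17.5% and 7.37% of all): Igf1 (2), Igf2 (2), Igfbp2, Igfbp3 (2), Igfbp5 (2) and Igfbp7. Higher in replicate 3 were 4 probe sets, of both receptors and of 1 binding protein (3 on A and 1 on B, against 16.4% and 7.44% of all): Igf1r (2), Igf2r and Igfbp4. Of these 14 calls 9 held in each alternative run and 5 were lost in some. Igfbp7 was lost in 11 of 24 alternatives (adjusted p up to 0.205 in limma): without the filter, without the trend, and without any 1 array of 0, 4 or 12 h. Igf1r 1452982_at was lost in 15 of 24 (up to 0.161), among them each that left out an array of 24 or 48 h. Igfbp5 1422313_a_at was lost without replicate 3 of 0, 4 or 12 h (up to 0.0822), and Igf2r 1424112_at without replicate 3 of 48 h (0.0505). Igfbp4 1437405_a_at was lost with array weights and without replicate 3 of 0, 4 or 48 h (up to 0.116).

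The gap was widest for Igfbp2, which averaged 3085 ± 1471 over the 5 arrays of replicate 3 and 8968 ± 2835 over the 10 arrays of replicates 1 and 2 (SD over arrays of different hours). Its log2 difference was -1.64 ± 0.11 (SE, adjusted p = 9.3e-09 in limma). Igf2 1415931_at followed, at 556 ± 68.3 in replicate 3 and 1321 ± 476 in replicates 1 and 2, a log2 difference of -1.12 ± 0.15 (SE, adjusted p = 2.5e-05 in limma). Igfbp5 1452114_s_at averaged 766 ± 159 in replicate 3 and 1581 ± 548 in replicates 1 and 2, a log2 difference of -0.96 ± 0.10 (SE, adjusted p = 1.7e-06 in limma). Replicate 3 was the lowest array at each of the 5 hours for Igfbp2, Igf1 on B, both Igf2 probe sets, Igfbp3 on B and Igfbp5 1452114_s_at. Igf1r 1426565_at was the reverse, highest in replicate 3 at each of the 5 hours, at 605 ± 80.7 in replicate 3 and 449 ± 76.4 in replicates 1 and 2 (log2 difference 0.41 ± 0.09, SE, adjusted p = 0.0017 in limma). Of the smooth muscle and pericyte markers, 3 were tested on A, with sums of 8526 to 14007 in replicate 3, against 9554 to 19825 in replicates 1 and 2. Of the 4 tested on both chips 2 were called, Rgs5 lower (log2 difference -3.96 ± 0.14, SE) and Cspg4 higher (0.78 ± 0.12), and the median of the 4 was 0.04. The 1 tested adipocyte marker, Lpl, was higher, at 362.6 to 681.2 in replicate 3, against 104.8 to 221.6 in replicates 1 and 2 (log2 difference 1.42). Of 2 tested markers each, 1 of endothelium (Tek, -0.59) and 1 of leukocytes (Adgre1, -0.52) were lower. Of cartilage and bone 0 of 3, of fibroblasts 0 of 1 and of Schwann cells 0 of 1 were called. Higher markers of dividing cells went with these differences (median log2 difference 1.27 over 6 genes), and 4 of 9 muscle markers were lower in replicate 3. Their part in the differences of the members was not tested.

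**Figure D5:**
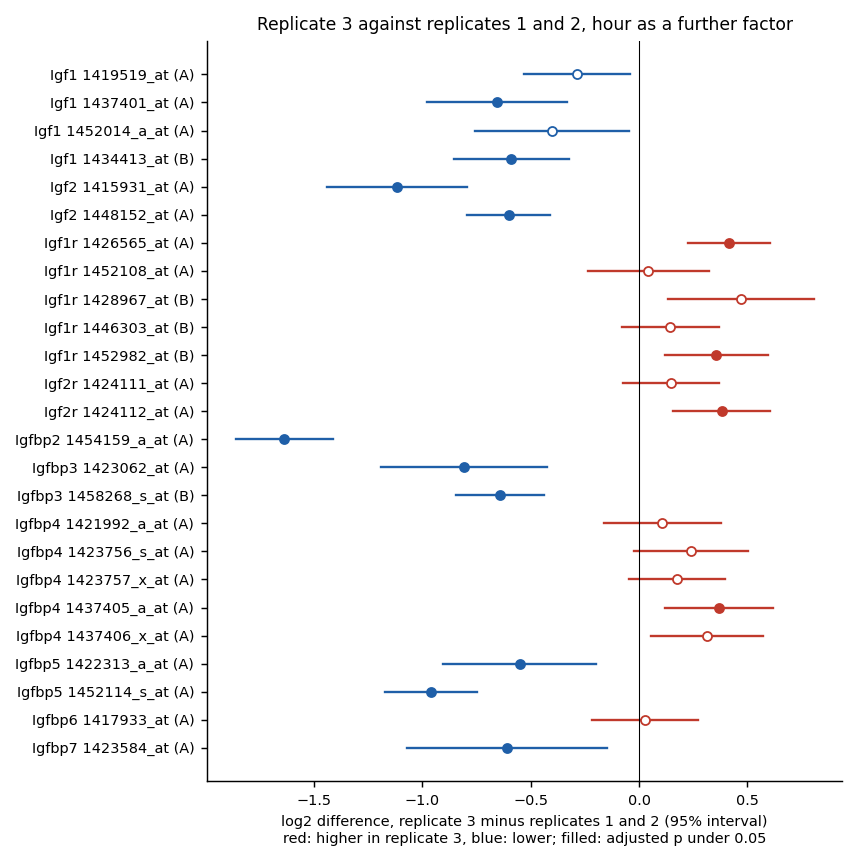
Log2 difference of each tested member probe set, replicate 3 minus replicates 1 and 2, with 95% intervals from limma with hour kept in the model. Filled points have an adjusted p under 0.05. All 6 ligand probe sets and those of Igfbp2, Igfbp3, Igfbp5 and Igfbp7 lie left of 0, and all 7 receptor probe sets lie right of 0, of which 3 are called.

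Genes around the system were described with 4 lists of 66 genes, of which 54 were tested, each by its brightest probe set. With hour alone 0 of the 54 were called in any comparison with 0 h or over all hours, with 12 at 24 h and 6 at 48 h at an unadjusted p under 0.05. The share of all probe sets under that unadjusted threshold was not counted. With the term for replicate 3, 11 of the 54 were called at 24 h (6 higher, 5 lower) and 7 at 48 h (1 higher, 6 lower), with backgrounds for A and B as above. Their medians were 0.0074 at 24 h and -0.00051 at 48 h on the log2 scale. These lists were drawn up with earlier results of these data known.

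Among receptors, relatives and adaptors, 11 of 13 were tested, 2 were lower at 24 h and 1 at 48 h in the fit with the term. The 2 with the smallest adjusted p at 48 h were Sh2b2 and Grb14. The hour whose arrays are printed for each gene named in this way was not set by that rule. Sh2b2, an adaptor of the insulin receptor, read 155.2, 139.7 and 91.7 at 48 h, against 208.1, 244.3 and 186.9 at 0 h, without overlap. Its log2 difference was -0.63 ± 0.18 (SE), with an adjusted p in limma of 0.0955 with hour alone and 0.0215 with the term. Grb14, which binds and inhibits the insulin receptor, read 60.7, 47.5 and 128.5 at 24 h, against 147.5, 175.8 and 234.7 at 0 h (log2 difference -1.05 ± 0.32, SE). Its adjusted p at 24 h was 0.105 in limma with hour alone and 0.0021 with the term. At 48 h Grb14 averaged 113 ± 43.7, against 186 ± 44.5 at 0 h (SD, n = 3 each), and was called in neither fit. In the list of PI3K, AKT, mTOR and FOXO genes, 24 of 27 were tested, 5 were called at 24 h (4 higher, 1 lower) and 2, both lower, at 48 h in the fit with the term. The genes named by the same rule were Pik3r3 and Gsk3a. Pik3r3, a regulatory subunit of PI3K, read 2452, 2289 and 1656 at 48 h, against 3081, 3308 and 2583 at 0 h, without overlap (log2 difference -0.49, adjusted p in limma 0.205 with hour alone and 0.0099 with the term). Gsk3a, a kinase that AKT inhibits, read 2450, 1904 and 1817 at 24 h, against 1119, 1198 and 1377 at 0 h, without overlap (log2 difference 0.72, adjusted p in limma 0.052 with hour alone and 0.0052 with the term). At 48 h Gsk3a averaged 1643.5 ± 196, against 1231 ± 132 at 0 h (SD, n = 3 each), and was called in neither fit.

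Of the proteases of binding proteins, their inhibitors and carriers, 9 of 11 were tested, and in the fit with the term 2 were higher at 24 h and 1 at 48 h. Pappa2, a protease of IGFBP5 and IGFBP3, read 588.6, 920.3 and 601.8 at 24 h, against 327.7, 360.5 and 405 at 0 h, all above them. Its log2 difference was 0.83 ± 0.20 (SE), with an adjusted p in limma of 0.0658 with hour alone and 0.029 with the term. At 48 h Pappa2 averaged 631 ± 83.0, against 364 ± 38.8 at 0 h (SD, n = 3 each), and was called in neither fit. Adam9, a metalloprotease, read 1585, 1515 and 1830 at 24 h, against 1158, 899.4 and 1228 at 0 h, without overlap. Its log2 difference was 0.58 (adjusted p in limma 0.169 with hour alone and 0.0321 with the term). At 48 h Adam9 averaged 1545 ± 482, against 1095 ± 173 at 0 h (SD, n = 3 each), and was called in neither fit. Of the other IGF-related genes, 10 of 15 were tested, with 2 lower at 24 h and 3 lower at 48 h in the fit with the term. Stat5a, a transcription factor downstream of growth hormone, read 185.8, 171.5 and 151.6 at 48 h, against 366.9, 293.8 and 222 at 0 h, without overlap (log2 difference -0.68, adjusted p in limma 0.142 with hour alone and 0.0114 with the term). Ccn1, a matricellular protein with an IGF binding domain, read 1818, 1665 and 4053 at 24 h, against 4095, 3978 and 4158 at 0 h, so that replicates 1 and 2 were lower and replicate 3 was close to its value at 0 h, as for Igfbp7.

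Several other genes of these lists separated the replicates and were chosen after their values were seen. Htra1, a secreted serine protease that cleaves binding proteins, read 284, 324.1 and 854.9 at 24 h, against 1008.8, 785.3 and 710.9 at 0 h, and Pappa, the protease of IGFBP4, read 332.1, 343.3 and 423.8 at 24 h, against 766.9, 766.2 and 174.5 at 0 h. Within replicates 1 and 2 both were lower at 24 h, and within replicate 3 both were higher. In replicates 1 and 2 alone their log2 differences at 24 h were -1.47 ± 0.18 and -1.07 ± 0.21 (SE), with adjusted p-values of 0.000145 and 0.0143 in limma. Socs2, a feedback inhibitor of growth hormone signalling, read 1056, 1088 and 183.8 at 24 h, against 1867, 1818 and 338 at 0 h, lower in each replicate number, and its log2 difference between replicate 3 and replicates 1 and 2 was -2.27 ± 0.10 (SE, adjusted p = 6.0e-11 in limma).

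The genes whose pattern over the 15 B arrays was most like that of Igf1 on B were Lrch1, Spty2d1 and Otud1, with Pearson r of log2 values of 0.926, 0.925 and 0.913. These are descriptions over arrays that share hours and replicate numbers.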

How the data were processed

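Total RNA of mouse leg muscle cultures was hybridised to the A and B chips of an Affymetrix set. Each array was deposited as linear intensities per probe set, and per the labels the manufacturer's standard protocol was used. For the scanner software, probe summary and genome build, the sources used here name nothing. The mean of the deposited intensities after trimming 2% at each end was 500.1 to 500.2 on every array, so no further scaling was applied. Titles gave the hour, chip and replicate number.

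Values were taken as log2(intensity + pseudocount), with the chip's 20th percentile as pseudocount (29 on A, 54 on B), which understates changes in dim probe sets. The brightest 60% of probe sets by mean log2 were fitted, each chip on its own over its 15 arrays, with limma 3.58.1 (linear models and moderated statistics with an intensity trend, R 4.3.3). Tests were two-sided, with Benjamini-Hochberg adjustment within chip and comparison over 13576 A or 13507 B probe sets. An exact permutation test of 1 probe set, 3 arrays against 3, has a smallest possible p of 0.1. All comparisons with 0 h share the arrays at 0 h. The fits were tested on simulated data. Genes came from GEO's platform annotation, in which 20380 A and 14661 B probe sets had 1 gene, 691 and 245 several and 1555 and 7605 none, and start regions came from RefSeq (GRCm38.p6), which held all 10 members.

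Members, lists and the split of replicate 3 from replicates 1 and 2 were chosen with earlier results of these data known. All member probe sets were named. Of each pathway list, up to 6 genes called against 0 h or over all hours with hour alone were named, otherwise the 2 with the smallest adjusted p at 48 h. For likeness, the 3 genes with the highest correlation were taken for each member whose brightest probe set was called. Alternatives tried included median centring and quantile normalization, 3 other pseudocounts, 2 other filters, only the hours compared, a replicate block, a term for replicate 3, replicates 1 and 2 alone, no trend, array weights and leaving out each replicate of each hour. The test of whether replicate 3 changed differently was added after the data were seen.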

Additional observations from a re-analysis of the deposited data

Results flagged for a closer look

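Igfbp7 (1423584_at, A) changed differently in replicate 3 and in replicates 1 and 2, by a test of that difference in limma. At 24 h against 0 h the change in replicate 3 exceeded that in replicates 1 and 2 by 1.82 on the log2 scale (adjusted p = 0.0101), and at 48 h by 1.37 (adjusted p = 0.0192). In the same test 97 of 13576 A probe sets were called at 24 h and 242 at 48 h (1.78%). Replicate 3 has 1 array per hour, assumed to vary like the others.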

How the results depend on the processing

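The number of member probe sets called with hour alone was 0 in every comparison of 2 hours and 2 over all hours. With the term for replicate 3 it was 1 at 12 h, 7 at 24 h and 5 at 48 h against 0 h, 1 at 24 h against 12 h, 3 at 48 h against 24 h and 11 over all hours. In replicates 1 and 2 alone it was 1 at 12 h, 7 at 24 h and 7 at 48 h against 0 h, 1 at 12 h against 4 h, 4 at 24 h against 12 h, 3 at 48 h against 24 h and 10 over all hours. Of all probe sets on A and B, 4.18% and 0.622% were called there at 12 h, 1.44% and 0.111% at 12 h against 4 h, 2.7% and 1.1% at 24 h against 12 h, 4.63% and 3.84% at 48 h against 24 h, and 17.5% and 7.84% over all hours. With array weights it was 5 at 24 h, 2 at 48 h, 4 at 24 h against 12 h, 4 at 48 h against 24 h and 11 over all hours. The shares of all A and B probe sets were then 17.6% and 2.43%, 9.26% and 5.6%, 8.65% and 0%, 6.88% and 1.32%, and 21% and 4.67%, in the same order. At 24 h it was 1 with quantile normalization, 1 with median centring and 1 with 4 times the pseudocount, at 48 h against 24 h 1 in the upper 40% of probe sets, and over all hours 1 with quantile normalization, 1 with 0.5 times the pseudocount, 1 in the upper 40%, 1 without the trend, 0 with a pseudocount of 1 and 0 without the filter. Leaving out each replicate of each hour gave 0 to 1 at 24 h against 0 h, 0 to 1 at 48 h against 24 h, 0 to 4 over all hours and 0 in the other comparisons. The cause of these changes was not tested.

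With the replicate number as a block the count was 1 at 12 h, 7 at 24 h, 5 at 48 h, 1 at 24 h against 12 h, 3 at 48 h against 24 h and 11 over all hours. Of all A and B probe sets that fit called 0.707% and 0.178% at 12 h and 12.2% and 3.61% at 24 h. At 48 h the shares were 9.01% and 4.89%, and at 24 h against 12 h 0.243% and 0.0222%. At 48 h against 24 h they were 2.16% and 2.24%, and over all hours 12.1% and 5.77%. Arrays of the same number did not all deviate together: the correlation of deviations was as low as 0.044 on A and 0.0026 on B, and 0.475 and 0.227 at the lowest among arrays of replicate 3. Among 15 A arrays 11, and among 15 B arrays 10, correlated best with their own number. The median correlation of numbers 1 and 2 with themselves was 0.365 and 0.359 on A and 0.102 and 0.130 on B. Between number 1 and number 2 it was 0.365 and 0.109, and for number 3 with itself 0.634 and 0.323. All 10 pairs of replicate 3 arrays correlated above 0.1 on each chip, so those arrays did deviate together. The main fit had no block for the number because no method states a pairing. Changes given within a replicate number are descriptions.

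None of the 100 differences from 0 h was called with hour alone, so none could lose a call. Of 2768 values recomputed under the alternatives 53 were called, and 62 uncalled ones changed sign. The number called between replicate 3 and replicates 1 and 2 stayed within 1.5 times under each alternative run, but 5 of the 14 calls were lost under some. Values of dim probe sets, such as the 3 below the filter, carry no ordering of hours.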
